A study of Homo sapiens with 15 samples.

Results

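Myosin motors are built from heavy chains, which bind actin and hydrolyse ATP, and from light chains, which bind the neck of the heavy chain. The 38 genes described here are those of the 18858 genes in the table whose symbol begins with MYO, MYH or MYL followed by a digit, with antisense genes, MYLK and MYLIP left out. They comprise 7 heavy chains of class II (MYH genes), 9 light chain genes (MYL, among them the pseudogene MYL12BP1) and 22 unconventional heavy chains (MYO genes). The rule reads only the symbols.

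RNA was sequenced from the human breast cancer line MDA-MB-231, an established line that degrades matrix through actin-rich protrusions called invadopodia. There were 5 groups of 3 libraries each, namely cells without transfection (Control), cells given siRNAs with no target (siControl), cells given siRNAs to YAP1 (siYAP) or to WWTR1, which encodes TAZ (siTAZ), and cells given both of these pools (siYAP+TAZ). Knockdown lasted 48 h and was followed by 5 to 6 h on gelatin, so every group was harvested from the same substrate and from one cell line without any genetic modification. YAP and TAZ are co-activators of transcription that are held back by the Hippo kinases, and the comparisons ask how transcripts change when either or both are depleted. Each pool was used at the same final concentration, so the co-knockdown received more siRNA in total, and the amount of siRNA and the loss of both genes cannot be told apart.

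In nonmuscle cells, class II myosins form bipolar filaments that pull on actin and generate contraction, and phosphorylation of their regulatory light chain switches them on. Unconventional myosins do not form such filaments. They tether membranes to actin, carry organelles and extend filopodia. Contractility of the actomyosin cortex is also known as an input to YAP and TAZ, and cytoskeletal genes are among the transcripts they act on.

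The 3 nonmuscle regulatory light chains are close copies of each other of which one or another was called in some comparisons, so a 120-base stretch of their coding sequences is shown, lined up at the same codons, from RNA of the GENCODE 44 transcripts on GRCh38. Capitals mark bases that differ from MYL12B. MYL12B is at chr18:3261479-3278461, MYL12A at chr18:3247481-3256236 and MYL9 at chr20:36541497-36551447, all on the plus strand. The stretch begins at coding base 40 of MYL12B and MYL9 and at coding base 37 of MYL12A, whose coding sequence is 3 bases shorter.
MYL12B: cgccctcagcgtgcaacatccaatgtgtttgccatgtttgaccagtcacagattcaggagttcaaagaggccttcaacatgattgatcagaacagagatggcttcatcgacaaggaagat
MYL12A: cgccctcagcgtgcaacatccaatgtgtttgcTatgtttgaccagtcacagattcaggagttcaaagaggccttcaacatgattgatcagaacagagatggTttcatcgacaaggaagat
MYL9: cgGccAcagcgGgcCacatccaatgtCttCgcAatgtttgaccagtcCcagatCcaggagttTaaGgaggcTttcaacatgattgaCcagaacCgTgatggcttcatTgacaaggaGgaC
In these 120 bases MYL12A differed from MYL12B at 2 positions and MYL9 at 18. Over the 477 coding bases that could be lined up, MYL12A and MYL12B were identical at 96.0% (longest identical run 77 bases), whereas MYL9 and MYL12B were identical at 80.7% with no identical run above 17 bases. Of all 50-base stretches in their exons, 6.52% of those of MYL12B and 4.59% of those of MYL12A also occurred in other genes, and none of those of MYL9. Reads from the shared stretches of MYL12A and MYL12B may have been discarded or assigned to either gene by the counting.

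Total counts per library lay between 18696737 and 30107312. YAP1 was at 17.6% to 64.0% of the siControl mean in siYAP and at 41.5% to 51.8% in siYAP+TAZ. WWTR1 was at 14.1% to 45.8% in siTAZ and at 62.1% to 71.0% in siYAP+TAZ, so TAZ transcripts were depleted less in the co-knockdown than in siTAZ. The markers VIM and CD44 of this mesenchymal-like line were both high in every library (at least 19210 normalized counts). Of 5 receptor and epithelial genes listed as low in it, ESR1 and CDH1 were not in the table and PGR did not exceed 8.32. ERBB2 and EPCAM were present in every library, at 2083 to 2927 and 243.6 to 407.5. The muscle actins ACTA1 and ACTC1 did not exceed 12.99. The study describes the libraries as independent sets of experiments, but neither it nor the labels tie single libraries to one of these sets. Libraries were therefore not paired in the main fit. The library numbers form consecutive runs that each hold every group, and a fit with these runs as a block was tried as an alternative.

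Normalized counts are reads divided by the effective library size (total count times the TMM factor) and brought to the mean library. A gene is called changed where its adjusted p (edgeR's quasi-likelihood test with Benjamini-Hochberg adjustment) was 0.05 or less, and differentially expressed where its log2 fold change was also at least 1 in size. All 38 genes passed the minimum of 5 reads in at least 1 library, but only 27 averaged at least 20 normalized counts. The other 11 (MYL3, MYO1G, MYO3A, MYO7A, MYO1H, MYO16, MYL12BP1, MYH11, MYO15A, MYL4 and MYO1F) are measured with large errors.

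To compare levels between genes, normalized reads were divided by the length of the canonical transcript (as reads per kb of transcript, scaled to libraries of equal size). In siControl cells the level was highest for MYL6, the essential light chain of nonmuscle myosin II, at 392 ± 19.1 (SD, n = 3). MYH9, the heavy chain of nonmuscle myosin IIA, followed at 339 ± 28.5, and MYL12B at 285 ± 10.4. The filament-forming nonmuscle myosin II thus held the first 4 places, since MYL12A came next at 161 ± 15.6.
MYO1C, a membrane-bound class I motor, was the most abundant unconventional myosin per length at 138 ± 7.86. MYL9 followed at 76.0 ± 1.94 and MYO19, a motor of mitochondria, at 41.1 ± 3.47. None of these levels overlapped with that of its neighbour in the order. MYH10, the heavy chain of nonmuscle myosin IIB, stood far below MYH9 at 12.3 ± 0.946 and overlapped with MYL5 below it (11.6 ± 2.23).
Further down the order ranges ran into each other, so that 20 of the 37 pairs of neighbours overlapped. Below a level of 1 stood 19 members, among them MYH16, MYH15, MYO1F and MYO15B. Because of its length and level, MYH9 alone took 47.6% of the reads of the members in siControl cells.

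**Figure D1:**
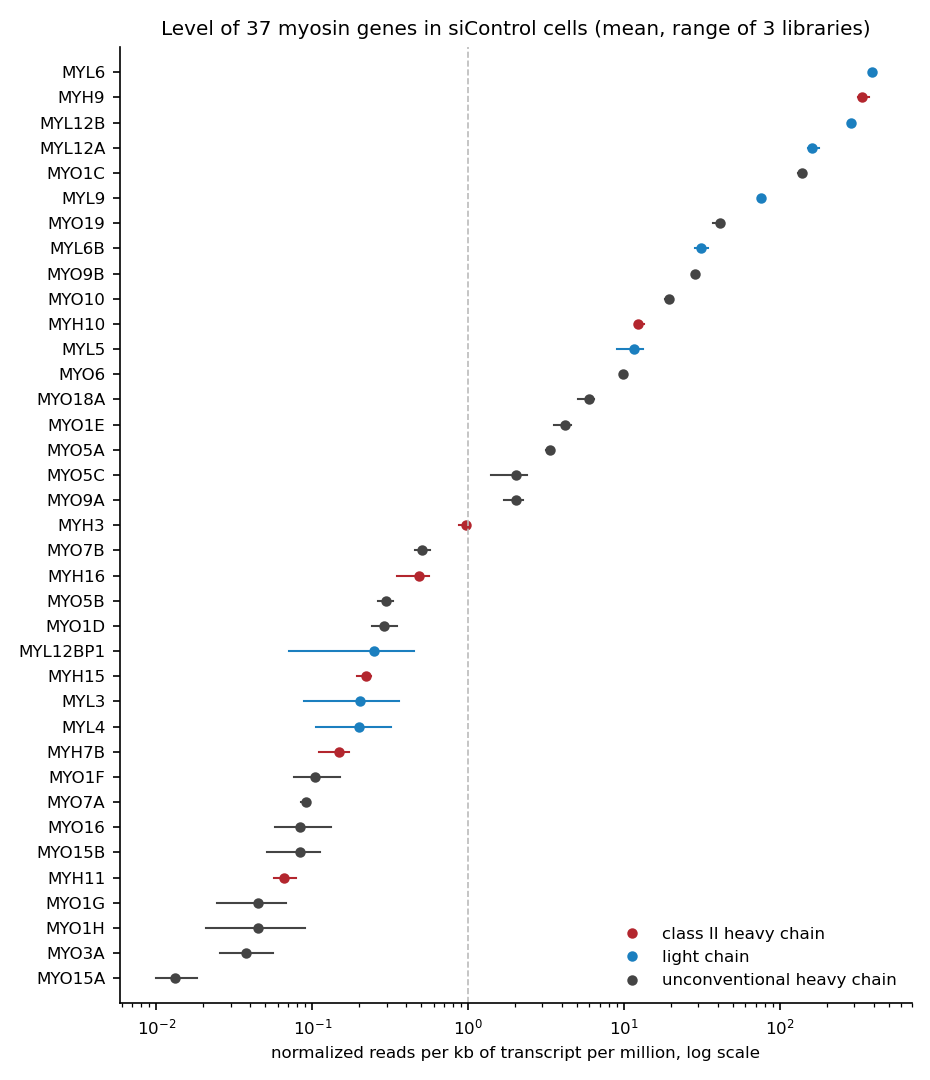
Level of 37 of the 38 genes in siControl cells in normalized reads per kb of canonical transcript, scaled to libraries of equal size, on a log axis. Points are means and bars the range of 3 libraries, the dashed line marks 1, and 19 genes lie below it.

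The members together took 0.514% to 0.536% of all reads in siControl and 0.511% to 0.533% in Control. In siYAP they took 0.499% to 0.517%, and in siYAP+TAZ 0.518% to 0.560%. In siTAZ the share was 0.567% to 0.614%, above that of every other library. These shares are dominated by MYH9 and were not tested.

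In siYAP+TAZ, 10 of the 38 members had changed against siControl, 8 of them higher and 2 lower. This is 26.3% of the members, where 18.4% of all genes tested had changed. Among all genes 9.97% were called higher and 8.39% lower. The 8 that rose were MYO15B, MYH15, MYO1F, MYH16, MYO18A, MYO1E, MYO10 and MYO9B, and the 2 that fell were MYL12B and MYO19. Differentially expressed were 4, all higher (MYO15B, MYH15, MYO1F and MYH16), and 3.14% of all genes were so called in that direction. Without library siYAP+TAZ 25 the number of changed members fell to 6. With the runs of consecutive library numbers as a block, each changed member named above was still called (edgeR, adjusted p at most 0.00145). In RNA from whole cultures, fewer cells that express a gene and less RNA of it per cell cannot be told apart.
The median log2 fold change was 0.04 over the 38 members and -0.00481 over all genes. By role, 2 of 7 class II heavy chains rose and none fell, none of the 9 light chain genes rose and 1 fell, and 6 of 22 unconventional heavy chains rose and 1 fell. All libraries of siYAP+TAZ lay outside the range of siControl for 14 members (36.8%), against 36.4% of all genes, so that separation of the libraries was as frequent among the members as in the whole table.

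**Figure D2:**
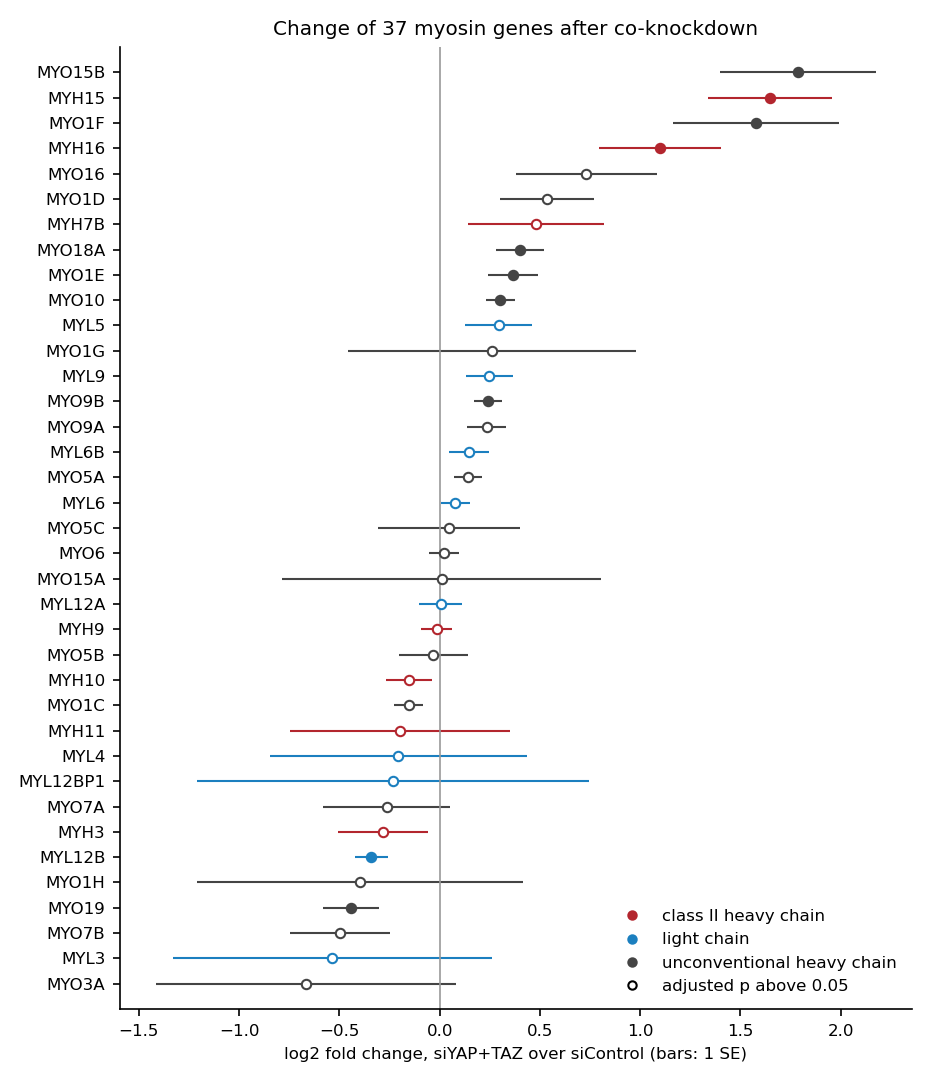
Log2 fold change of 37 of the 38 genes in siYAP+TAZ over siControl with 1 SE (edgeR, 3 libraries per group). Filled points mark the 10 genes with an adjusted p of at most 0.05, from MYO15B at 1.79 to MYO19 at -0.44, and open points the other 27.

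The heavy chains of nonmuscle myosin II were not among the changed genes. MYH9 (chr22:36281280-36388010) counted 56018, 57768 and 65459 normalized reads in siControl and 54762, 62149 and 60613 in siYAP+TAZ. The groups overlapped widely, and the log2 fold change was -0.01 ± 0.0776 (SE, adjusted p = 0.931), with a 95% interval of -0.18 to 0.15. Its sign turned to 0.03 when only library size was used for scaling, and to 0.05 and 0.06 without siYAP+TAZ 20 and siControl 27.
MYH10 (chr17:8474207-8631376) was at 2134, 2158 and 2444 in siControl and at 1721, 2068 and 2258 in siYAP+TAZ. Here too the ranges overlapped, with a log2 fold change of -0.15 ± 0.114 (adjusted p = 0.399). It was -0.05 without siYAP+TAZ 20, -0.09 without siControl 27 and -0.24 without siYAP+TAZ 30, and did not pass in any of the fits tried.
In siYAP the 3 values of MYH9 were 53244, 52581 and 55645, all below siControl (log2 fold change -0.15 ± 0.0777, adjusted p = 0.468). In siTAZ they were 63697, 72332 and 67549, which overlapped with siControl (0.18 ± 0.0777, adjusted p = 0.244). The libraries of siYAP and siTAZ did not overlap, and the difference between them was 0.33 ± 0.0777 with an adjusted p of 0.0548. In siYAP+TAZ against siTAZ, neither MYH9 nor MYH10 was called in the main fit. With the runs of library numbers as a block both were lower in siYAP+TAZ, by 0.20 and 0.28 on the log2 scale (edgeR, adjusted p = 0.0331 and 0.0021).

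MYH10 made up 3.51% ± 0.0389 (SD, n = 3) of the nonmuscle class II heavy chains per length in siControl, the remainder being MYH9. The share was 3.70% ± 0.226 in siYAP, 3.37% ± 0.410 in siTAZ and 3.18% ± 0.270 in siYAP+TAZ. In siYAP+TAZ the 3 shares (2.95%, 3.12% and 3.48%) all lay below those of siControl (3.48% to 3.55%), although the highest was at the edge of the siControl range. The Control libraries were at 3.37%, 3.42% and 3.90%. A pair of them thus also lay below siControl, and below the highest siYAP+TAZ share. The exact permutation test (two-sided, 3 against 3, smallest possible p = 0.1) gave p = 0.4, 0.5 and 0.1 for siYAP, siTAZ and siYAP+TAZ, and 0.6, 0.6 and 0.2 after adjustment over 6 comparisons. MYH14, the third nonmuscle heavy chain, was not analysed here.

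The class II heavy chains that rose were MYH15 and MYH16, which resemble muscle heavy chains and had few reads. MYH15 (chr3:108380368-108529322, minus strand) was at 38.3, 32.4 and 39.7 normalized counts in siControl and at 107, 95.6 and 142 in siYAP+TAZ, from 35 to 45 and 89 to 155 reads. Every siYAP+TAZ library stood above every siControl and Control library (Control 37.0, 40.8 and 18.4). The log2 fold change was 1.65 ± 0.309 (adjusted p = 0.00119), and the call held without any one library of the groups compared.
MYH16 (chr7:99238829-99311130, plus strand) is annotated as a transcribed unitary pseudogene and in humans encodes no intact heavy chain. Its values were 48.5, 74.9 and 77.2 in siControl and 118, 121 and 186 in siYAP+TAZ, again without overlap. The log2 fold change was 1.098 ± 0.305 (adjusted p = 0.0187), and it was 0.91 (adjusted p = 0.0868) without siControl 17 and 0.85 (adjusted p = 0.0875) without siYAP+TAZ 30. Of its exonic bases, 12.8% lie opposite KPNA7 or another gene, and whether the counting used the strand is not stated.
The other sarcomeric or smooth muscle heavy chains did not pass the test. MYH3, the embryonic heavy chain, was at 126 to 145 in siControl and at 105 to 121 in siYAP+TAZ (log2 fold change -0.28 ± 0.225, adjusted p = 0.440). MYH7B was at 17.0 to 26.8 and at 22.0 to 51.1 (adjusted p = 0.379), and MYH11, the smooth muscle heavy chain, at 9.25 to 12.9 and at 3.22 to 22.6 (adjusted p = 0.851).
Of 10 skeletal and cardiac muscle markers 3 were in the table, and their summed level was 56.9 to 75.8 normalized counts in siControl and 58.0 to 109 in siYAP+TAZ, most of it from TTN (57.7 and 76.1 on average, adjusted p = 0.335). ACTA1 averaged 2.73 and 1.87 and ACTC1 4.81 and 4.17. Of 4 smooth muscle markers 3 were in the table. Their sum, nearly all of it SMTN, was 4717 to 6827 in siControl and 4450 to 4740 in siYAP+TAZ, and CNN1 was at or below 9.38 in every library. ACTA2, the smooth muscle actin, averaged 17.3 and 30.3 (log2 fold change 0.80, adjusted p = 0.0513), and CNN1 2.65 and 5.59 (adjusted p = 0.507). The part of muscle transcripts in the values of MYH15 and MYH16 was not tested.

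Among the light chains, MYL12B was the single one that changed in the co-knockdown. MYL12B encodes a regulatory light chain of nonmuscle myosin II, whose phosphorylation activates the motor. It was at 7824, 7567 and 8138 normalized counts in siControl and at 5876, 6070 and 6620 in siYAP+TAZ. All 3 siYAP+TAZ libraries lay below the lowest siControl and Control library (7384 in Control), and the level fell by 21.1% (log2 fold change -0.34 ± 0.0818, adjusted p = 0.0064).
This call held without any one library of the groups compared (adjusted p at most 0.0404). Its neighbour on chromosome 18 and close copy MYL12A was at 3479, 3418 and 4057 in siControl and at 3491, 3442 and 4049 in siYAP+TAZ. The ranges nearly coincided, the highest value of each group was in a library numbered 26 to 30, and the log2 fold change was 0.00 (0.00435 ± 0.107, adjusted p = 0.986), with a 95% interval of -0.22 to 0.23. Its sign turned to -0.04 against Control and ranged from -0.07 to 0.09 when 1 library was left out.
MYL12A and MYL12B share stretches of sequence, as shown above, and how the counting placed reads from them was not measured. The difference between the changes of the pair was not tested.

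**Figure D3:**
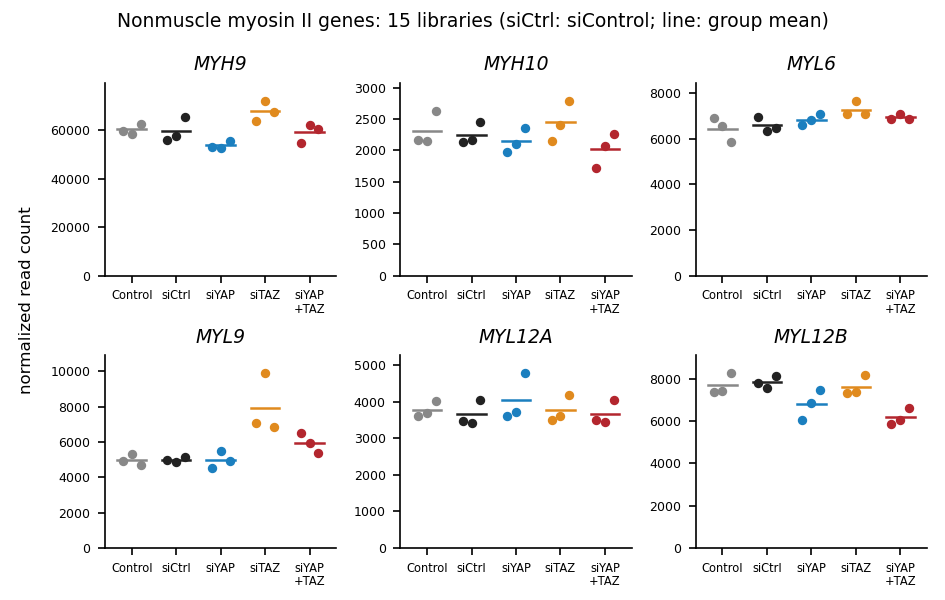
Normalized counts of 6 nonmuscle myosin II genes in all 15 libraries, 3 per group, with the group mean as a line and axes that start at 0. MYL12B is lower in siYAP+TAZ (5876 to 6620) than in siControl (7567 to 8138), MYL9 is high in siTAZ (6833 to 9922), and MYH9, MYH10, MYL6 and MYL12A overlap between siYAP+TAZ and siControl.

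MYL9, the regulatory light chain best known from smooth muscle and contractile cells, behaved in another way. It was at 5000, 4885 and 5140 in siControl and at 7058, 9922 and 6833 in siTAZ. Every siTAZ library stood above every siControl and Control library (Control 4917, 5330 and 4693). The log2 fold change was 0.66 ± 0.118 (adjusted p = 0.00872), and MYL9 was the only member that changed in siTAZ, where 2.03% of all genes did. Library siTAZ 24 was the highest and also held the least WWTR1 (14.1% of the siControl mean). Without siTAZ 24 the log2 fold change was 0.47 (adjusted p = 0.0354). With only the libraries of siTAZ and siControl in the fit the adjusted p was 0.0555, which no longer passed.
In siYAP the values of MYL9 were 4503, 5488 and 4922, on both sides of siControl, with a log2 fold change of -0.01 ± 0.118 (adjusted p = 0.990). In siYAP+TAZ they were 6522, 5950 and 5375. These 3 values lay above siControl but below siTAZ, and the log2 fold change of 0.25 ± 0.118 did not pass the test (adjusted p = 0.167). With only the libraries of siYAP+TAZ and siControl in the fit its adjusted p was 0.0347.
Set directly against siTAZ, MYL9 was lower in siYAP+TAZ, with a log2 difference of -0.42 ± 0.118 (adjusted p = 0.0488). This call was close to the limit. Its adjusted p was 0.0702 without siYAP+TAZ 20, 0.253 without siTAZ 24 (where the difference was -0.22), 0.143 without siYAP+TAZ 25 and 0.158 without siYAP+TAZ 30. It was 0.0566 with the size factors of DESeq2, 0.0903 with library size only, and 0.0505 to 0.181 with other filters or only the groups compared. The call held without siTAZ 19 or siTAZ 29 (adjusted p = 0.0316 and 0.0291) and with DESeq2 (0.0281).
MYL12B was also lower in siYAP+TAZ than in siTAZ (7318, 7395 and 8202 in siTAZ), by 0.30 ± 0.0818 (adjusted p = 0.0367). This adjusted p rose to 0.167 without siYAP+TAZ 20, 0.0722 without siTAZ 24, 0.135 without siYAP+TAZ 25, 0.162 without siTAZ 29 and 0.0581 with only the groups compared. MYL9 and MYL12B were the 2 members called in this comparison, that is 5.26% of the members, and 5.44% of all genes were called in it. WWTR1 was depleted less in siYAP+TAZ (62.1% to 71.0% of the siControl mean) than in siTAZ (14.1% to 45.8%). The added loss of YAP1 and the weaker loss of WWTR1 cannot be told apart here. In siYAP, MYL12B was at 6070, 6875 and 7461, all below siControl, with a log2 fold change of -0.21 ± 0.0816 that did not pass the test (adjusted p = 0.298).

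The make-up of the 3 nonmuscle regulatory light chains (MYL9, MYL12A and MYL12B) was computed per length within each library, so that it does not depend on the library's scaling, although its level depends on the transcript whose length was used. MYL9 made up 14.6% ± 0.399 (SD, n = 3) in siControl, with 14.8%, 14.8% and 14.1% in the libraries. In siTAZ it made up 20.3%, 26.0% and 17.7%, a mean of 21.3% ± 4.28. In siYAP+TAZ the shares were 21.2%, 19.5% and 16.3%, a mean of 19.0% ± 2.50.
In siTAZ and siYAP+TAZ every library was thus above every siControl library, and in the exact permutation test both reached the smallest p that 3 against 3 allows (p = 0.1, two-sided, 0.2 adjusted over 6 comparisons). In siYAP the shares of 15.2%, 16.7% and 13.4% lay around those of siControl (exact permutation p = 0.7). Without siYAP 23 the difference of 0.561 percentage points in siYAP turned to -0.249.
The share of MYL12B, looked at after the values had been seen, averaged 54.6% in siControl and 49.4%, 49.3% and 47.2% in siYAP, siTAZ and siYAP+TAZ. In siTAZ the level of MYL12B itself overlapped with siControl (log2 fold change -0.04 ± 0.0816, adjusted p = 0.875), so that its lower share there went with the higher level of MYL9. The share was below every siControl library in all 9 knockdown libraries, of which the highest was at 50.8%. The Control libraries were at 53.4%, 52.5% and 54.8%, so that a pair of them also lay below the lowest siControl library (53.5%), but above every knockdown library. The two-sided exact permutation test against siControl gave p = 0.1 in each of the 3 knockdowns, the smallest that 3 libraries against 3 allow, and is given as a description because the share was chosen after its values. On the scale of reads without division by length, MYL9 gained 10.5 percentage points in siTAZ and 7.31 in siYAP+TAZ, against 6.77 and 4.43 per length.

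**Figure D4:**
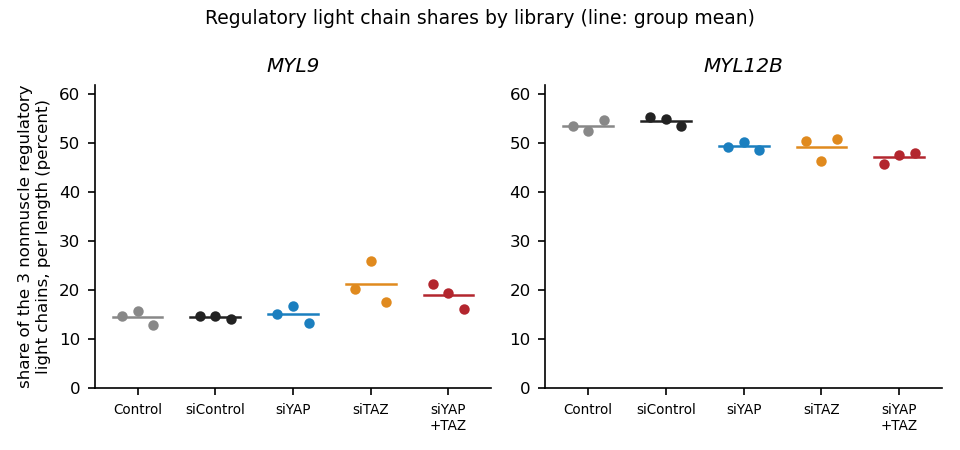
Share of MYL9 (left) and MYL12B (right) among the 3 nonmuscle regulatory light chains per length, in percent, for each library with the group mean as a line. MYL9 rises above the siControl range (14.1% to 14.8%) in all siTAZ and siYAP+TAZ libraries, and MYL12B lies below the siControl range (53.5% to 55.4%) in all knockdown libraries, with Control at 52.5% to 54.8%.

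The remaining light chains did not pass the test in any knockdown. MYL6, the essential light chain with the highest level, was at 6934, 6336 and 6440 in siControl and at 6875, 7084 and 6856 in siYAP+TAZ (log2 fold change 0.08 ± 0.0703, adjusted p = 0.501). MYL6B, the less abundant essential light chain encoded beside it, was at 560, 585 and 679 and at 643, 657 and 715 (0.15 ± 0.0997, adjusted p = 0.356). With 1 library left out these log2 fold changes ranged from 0.05 to 0.13 for MYL6 (highest without siControl 17) and from 0.10 to 0.23 for MYL6B (lowest without siControl 17, highest without siControl 27). The groups overlapped for both genes, which also overlap each other in the genome by 2.01% and 2.73% of their exonic bases. On the opposite strand, 16.3% of the exonic bases of MYL6 face SMARCC2, and 9.57% of those of MYL6B face MYL6B-AS1. Whether the counting used the strand is not stated.
MYL5, a regulatory light chain with 16.4% of its exonic bases opposite other genes, was at 201 to 294 in siControl and at 251 to 386 in siYAP+TAZ (adjusted p = 0.258). The cardiac and atrial light chains MYL3 and MYL4 and the processed pseudogene MYL12BP1 had no value above 7.51 normalized counts in any library, and none of them passed the test in any comparison.

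Of the unconventional myosins, MYO10 and MYO9B changed at high levels. MYO10, which gathers at the tips of filopodia and is one of the 4 members on the study's invadopodia list (with MYH9, MYL6 and MYO1F), was at 5387, 5517 and 4950 in siControl. In siYAP+TAZ it was at 6250, 6962 and 6346, above every siControl and Control library. It rose by 23.4% (log2 fold change 0.30 ± 0.0717, adjusted p = 0.00593), and the call held without any one library (adjusted p at most 0.0352).
In siTAZ, MYO10 was at 6209, 6416 and 5635, also above every siControl library, with 0.20 ± 0.0717 and an adjusted p of 0.150. In siYAP its values overlapped with siControl (0.07 ± 0.0716, adjusted p = 0.793).
MYO9B, a class IX motor, was at 5045, 5211 and 5193 in siControl and at 5910, 6447 and 5913 in siYAP+TAZ. The groups did not overlap, and the rise was 18.3% (log2 fold change 0.24 ± 0.0681, adjusted p = 0.0178). The adjusted p was 0.0625 without siControl 17 and 0.0829 without siYAP+TAZ 25. In siTAZ its libraries were at 5829, 6585 and 5690, above siControl as well, with a log2 fold change of 0.23 ± 0.0681 and an adjusted p of 0.0878.

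MYO18A, a motor-like protein linked to the Golgi and to actomyosin networks, was at 1481, 1521 and 1205 in siControl and at 1774, 1935 and 1842 in siYAP+TAZ. The libraries did not overlap (log2 fold change 0.40 ± 0.120, adjusted p = 0.0273). Without siYAP+TAZ 25, siControl 27 and siYAP+TAZ 30 the adjusted p was 0.0903, 0.121 and 0.0571, and with Control as the reference it was 0.077. With the runs of library numbers as a block it was 8.28e-05.
MYO1E, a class I motor of endocytosis and cell adhesion, was at 930, 913 and 723 in siControl and at 1187, 1217 and 910 in siYAP+TAZ. Library siYAP+TAZ 30 fell within the siControl range, so MYO1E is the single changed member whose groups overlapped (log2 fold change 0.37 ± 0.124, adjusted p = 0.0484). Without siControl 17, siYAP+TAZ 20, siControl 22, siYAP+TAZ 25 and siControl 27, in that order, the adjusted p was 0.0503, 0.153, 0.0671, 0.177 and 0.198. It was 0.0504 with library size only, 0.0696 with only the groups compared and 0.051 with Control as the reference.

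MYO19, which anchors and moves mitochondria on actin, was the unconventional myosin that fell. It was at 3886, 4100 and 3466 in siControl and at 3079, 2846 and 2505 in siYAP+TAZ, without overlap, and fell by 26.4% (log2 fold change -0.44 ± 0.139, adjusted p = 0.0374). The values within each of the 5 groups were lowest in the library numbered 26 to 30. Without siControl 17, siControl 22, siYAP+TAZ 25 and siYAP+TAZ 30 the adjusted p was 0.104, 0.124, 0.0917 and 0.144, and with library size only it was 0.109. With the runs of library numbers as a block it was 3.8e-06. Of the exonic bases of MYO19 (chr17:36495636-36543435, minus strand), 12.7% lie opposite ZNHIT3 and PIGW. If strand was not used, reads from these bases may have been discarded or assigned to either gene. In siYAP and siTAZ its values overlapped with siControl (log2 fold changes -0.05 and -0.08, adjusted p = 0.948 and 0.831).

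MYO15B and MYO1F showed the larger fold changes, from few reads. MYO15B (chr17:75587800-75626849, plus strand), a relative of the hair cell myosin MYO15A, was at 26.4, 12.02 and 20.4 normalized counts in siControl and at 101, 64.5 and 41.3 in siYAP+TAZ. These are 13 to 31 reads and 45 to 85 reads per library. Every siYAP+TAZ library stood above siControl, but the lowest was within the range of Control (45.0, 28.0 and 11.8). The log2 fold change was 1.79 ± 0.389 (adjusted p = 0.00365) against siControl and 1.23 (adjusted p = 0.0296) against Control.
MYO1F, a class I motor known from leukocytes, was at 8.51, 14.8 and 7.51 in siControl and at 34.5, 35.5 and 23.9 in siYAP+TAZ, from 7 to 16 and 26 to 33 reads. The groups did not overlap (log2 fold change 1.58 ± 0.414, adjusted p = 0.0114). Without siControl 17 the value was 1.45 with an adjusted p of 0.0561.
Of 6 leukocyte markers 2 were in the table. The defining leukocyte surface gene PTPRC was at 0 to 5.10 normalized counts over all libraries and LYZ at 0 to 12.9, with sums of 5.55 to 6.80 in siControl and 3.57 to 13.8 in siYAP+TAZ. PTPRC averaged 3.34 in siControl and 1.74 in siYAP+TAZ, whereas LYZ averaged 2.92 and 8.34 (log2 fold change 1.55, adjusted p = 0.163). The part of leukocyte transcripts in the values of MYO1F was not tested.

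**Figure D5:**
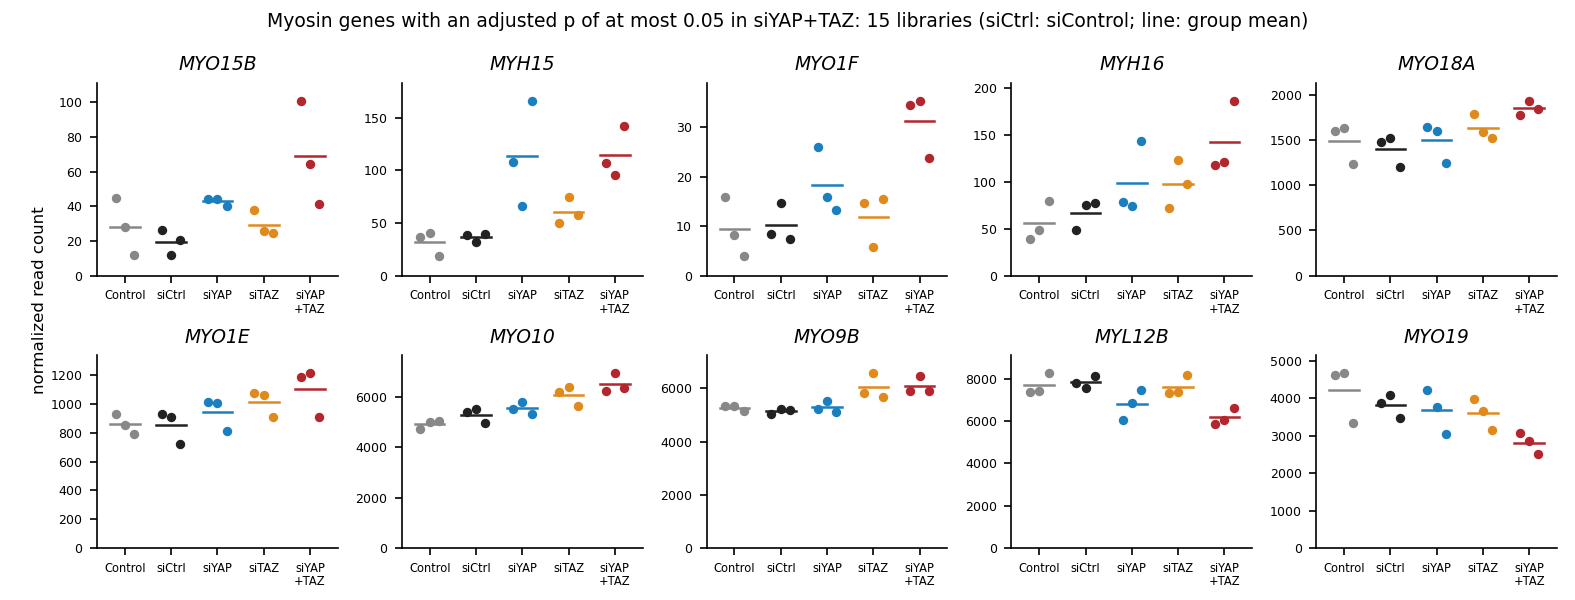
Normalized counts of the 10 myosin genes with an adjusted p of at most 0.05 in siYAP+TAZ against siControl, in all 15 libraries with the group mean as a line and axes that start at 0. Of the 10, all but MYO1E separate siYAP+TAZ from siControl, and MYO15B, MYH15, MYO1F and MYH16 stay below 200 normalized counts in every library.

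The most abundant unconventional motor, MYO1C, was at 15317, 15898 and 17112 in siControl and at 14288, 15255 and 13853 in siYAP+TAZ. The ranges did not overlap, although by a narrow margin, and the log2 fold change of -0.16 ± 0.0713 did not pass the test (adjusted p = 0.149). MYO6 and MYO5B had log2 fold changes of 0.02 and -0.03.
MYO1D, MYO7B and MYO9A also did not pass, at 0.54 ± 0.234, -0.50 ± 0.249 and 0.23 ± 0.0979 (adjusted p = 0.127, 0.189 and 0.109). MYO7B is a motor of the brush border, where CDHR2 and CDHR5 are its partners. CDHR2 averaged 4.598 normalized counts in siControl and 13.02 in siYAP+TAZ (adjusted p = 0.0445), CDHR5 3.49 and 5.43, and their summed level was 6.44 to 10.2 and 11.8 to 25.7. CDHR2 thus rose at a low level, and its part in the values of MYO7B was not tested.
The 6 remaining unconventional myosins below 20 normalized counts (MYO1G, MYO1H, MYO3A, MYO7A, MYO15A and MYO16) did not exceed 26.8 in any library, and none passed the test.

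Few members changed in the other comparisons. In siYAP the single changed member was MYH15 (2.63% of members, with 0.933% of all genes changed), at 108, 66.0 and 166 normalized counts. All 3 values were above siControl (32.4 to 39.7), and the log2 fold change was 1.61 ± 0.307 (adjusted p = 0.0159). The adjusted p was 0.0809 without siControl 17, 0.0546 without siYAP 18, 0.0895 without siControl 22, 0.0619 without siControl 27, 0.0786 without siYAP 28 and 0.057 with only the groups compared. Without siYAP 23, in which the most YAP1 remained, it was 0.00489.
In siTAZ, MYH15 was at 49.9, 75.0 and 57.8, above siControl by 0.72 ± 0.325, which did not pass the test (adjusted p = 0.285). The 3 knockdowns share their siControl libraries. For MYO15B the log2 fold changes were 1.13 ± 0.396 in siYAP (adjusted p = 0.226), 0.60 ± 0.421 in siTAZ (adjusted p = 0.535) and 1.79 ± 0.389 in siYAP+TAZ. For MYO1F they were 0.85 ± 0.427 (adjusted p = 0.454), 0.23 ± 0.469 (adjusted p = 0.872) and 1.58 ± 0.414, and for MYH16 0.55 ± 0.309 (adjusted p = 0.526), 0.54 ± 0.314 (adjusted p = 0.432) and 1.098 ± 0.305.

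Adding the TAZ knockdown to the YAP knockdown raised 1 member, MYO5A, a carrier of vesicles and organelles, where 5.13% of all genes changed. It was at 864, 898 and 871 in siYAP and at 1106, 1078 and 984 in siYAP+TAZ, without overlap (log2 difference 0.27 ± 0.0700, adjusted p = 0.0335). The siControl libraries, at 1014, 940 and 913, lay above siYAP and overlapped with siYAP+TAZ. The adjusted p was 0.125 without siYAP 18, 0.135 without siYAP+TAZ 20, 0.0744 without siYAP 23, 0.126 without siYAP+TAZ 25, 0.0852 without siYAP 28 and 0.0846 with only the groups compared.
siControl and Control did not differ in any member by edgeR (0 of 38, and 0% of all genes). At an unadjusted p under 0.05 there was 1, and DESeq2 called 0 as well. The interaction of siYAP and siTAZ, which asks whether the co-knockdown departs from the sum of the single effects, was not called for any member by edgeR or by DESeq2, with 1 at an unadjusted p under 0.05 and 0.0106% of all genes called. For MYL9 it was -0.41 ± 0.167 (adjusted p = 0.761), with a 95% interval of -0.76 to -0.05 for this gene alone. WWTR1 was depleted less in siYAP+TAZ (62.1% to 71.0% of the siControl mean) than in siTAZ (14.1% to 45.8%). A departure from the sum and this weaker depletion cannot be told apart.

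The changed members that had the largest fold changes and also an annotated start in RefSeq (GRCh38.p14) with no untranslated bases in the window were MYH15 and MYO15B, and the 250 bases before these starts are shown 5′ to 3′ on the strand of the gene. MYH15 reads from chr3:108510597-108510846 on the minus strand and MYO15B from chr17:75587550-75587799 on the plus strand. The MYH15 window lies inside the GENCODE locus of the gene, whose 5′ end is further upstream, at 108529322, and was not searched. No letter is in capitals, as neither window held any of the motifs searched.
MYH15: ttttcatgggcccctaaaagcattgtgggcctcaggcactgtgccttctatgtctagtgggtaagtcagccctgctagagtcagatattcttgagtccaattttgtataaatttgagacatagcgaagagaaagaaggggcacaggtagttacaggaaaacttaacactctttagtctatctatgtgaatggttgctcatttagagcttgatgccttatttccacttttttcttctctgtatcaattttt
MYO15B: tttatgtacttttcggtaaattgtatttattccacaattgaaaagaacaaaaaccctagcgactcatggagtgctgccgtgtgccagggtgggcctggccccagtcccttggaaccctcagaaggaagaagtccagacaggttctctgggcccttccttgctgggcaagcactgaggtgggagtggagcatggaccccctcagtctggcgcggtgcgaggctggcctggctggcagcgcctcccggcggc
Windows from 250 bases before to 50 bases after the start were searched on both strands for the TEAD motif (GGAATG), the AP-1 motif (TGANTCA) and the CArG box of SRF. A window was found for 29 of the 38 members (40 windows). The TEAD letters stood in windows of 4 members (MYH9, MYH10, MYL12A and MYO7B), and in 14% of all 35116 windows. The AP-1 letters stood in those of MYL6B and MYO1C (7.71% of all windows) and the CArG box in that of MYO1E (1.29%). The matches describe the letters of these windows, and no binding was measured in them.

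Besides the motors, 33 of 36 listed regulators of myosin II were in the table, and 7 of them (21.2%, with 18.4% of all genes) changed in siYAP+TAZ, 5 higher and 2 lower. The kinases come first. MYLK, the myosin light chain kinase, was at 1380, 1434 and 1629 in siControl and at 1001, 1067 and 1230 in siYAP+TAZ, without overlap, and fell by 0.43 ± 0.104 on the log2 scale (adjusted p = 0.0072). CDC42BPG, an MRCK kinase that acts on the light chain or its phosphatase, was at 68.9, 61.0 and 65.4 and at 120, 170 and 220 (log2 fold change 1.39 ± 0.218, adjusted p = 0.000218). The kinases ROCK1 and ROCK2, which act on the same light chain, did not pass the test (-0.17 ± 0.0966 and -0.01 ± 0.126).
PPP1R12B, a targeting subunit of myosin phosphatase, was higher by 0.48 ± 0.115 (adjusted p = 0.00664). Of the small GTPases in the list, RHOB and RHOC were higher by 0.61 ± 0.112 and 0.31 ± 0.0844 (adjusted p = 0.000963 and 0.0138), whereas RHOA was at -0.06 ± 0.0760 (adjusted p = 0.681). RHOB rose from 2273, 2229 and 1853 to 3742, 3067 and 2890 normalized counts.
Of the tropomyosins, which set where myosin can bind along actin, TPM1 fell by 0.38 ± 0.0714 (adjusted p = 0.00104) and TPM4 rose by 0.21 ± 0.0719 (adjusted p = 0.0453). Of the exonic bases of TPM1, 22.7% lie opposite antisense genes. TPM1 was the single regulator called in siYAP (-0.34 ± 0.0711, adjusted p = 0.0258), and none was called in siTAZ by edgeR. In siYAP+TAZ against siTAZ, RHOB and CDC42BPG were higher by 0.54 and 0.77 and TPM1 at -0.32 on the log2 scale (adjusted p = 0.00902, 0.0414 and 0.0125).

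A pair of members separated the libraries by their numbers. In the libraries numbered 26 to 30, 1 of each group, MYO5C, a class V motor of secretory vesicles, was at 194.6 to 248.7 normalized counts, and in the other 10 libraries at 339 to 428. MYL12A was at 4022 to 4791 in those 5 libraries and at 3418 to 3718 in the others. These 2 were the members (5.26%) whose values did not overlap between the sets of libraries, against 2.96% of all genes. The numbers carry no label of a date or batch. Each group holds 1 of the 5 libraries, so that the difference enters the spread within groups.

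In a direct comparison chosen after the values had been seen, siTAZ against siYAP, MYL9 was the single member called, where 0.642% of all genes were. MYL9 was at 6833 to 9922 in siTAZ and at 4503 to 5488 in siYAP. The ranges did not overlap, and MYL9 was higher in siTAZ by 0.68 ± 0.118 on the log2 scale (adjusted p = 0.0201). The adjusted p was 0.174 without siYAP 18, 0.111 without siTAZ 24 (where the difference was 0.47), 0.122 without siYAP 28 and 0.193 with only the groups compared.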

How the data were processed

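Polyadenylated RNA of 15 libraries (5 groups of 3) was sequenced as single reads. Per the submitters' processing notes and the methods, the authors trimmed reads, aligned them with STAR 2.4.2a to GRCh38 with GENCODE annotation in the UTAP pipeline, and deposited a table of unnormalized counts of reads, made by STAR, for every gene. Whether strand was used is not given in the sources used here. The normalized values, rlog values and the authors' fold changes and p-values in the same table were not used.

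The deposited counts were tested with edgeR 4.0.16 (limma 3.58.1, R 4.3.3): TMM normalization, robust quasi-likelihood fit of all 15 libraries with 1 coefficient per group, Benjamini-Hochberg adjustment over 18858 genes, and intervals at 95%. The test was first run on simulated counts. Log2 fold changes carry the SE of the fit. Shares within a library were compared by exact permutation. The alternatives tried were DESeq2 1.42.0 run as in the study's methods, its size factors, library size alone, 2 filters on low counts, only the groups compared, Control as the reference, a replicate block, and each library left out. Coordinates, overlaps and canonical transcript lengths came from GENCODE 44 and GRCh38, and promoters from RefSeq.

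The members, the regulators and the tests were chosen with earlier results of these data known. Named were the nonmuscle myosin II genes, the members of the study's invadopodia list, up to 12 changed members in each direction in siYAP+TAZ that averaged 20 or more normalized counts, and any member changed in siYAP, siTAZ, siControl against Control or the interaction. Up to 5 regulators in each direction were named likewise. MYO5A, MYO5C, the low class I and class V motors and most other members were named in addition, after their values were seen. The values of 1 member, which was counted in every total and was not called in siYAP+TAZ, are not reported here.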

Additional observations from a re-analysis of the deposited data

Results flagged for a closer look

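MYL9 differed between the single knockdowns: its level was higher in siTAZ than in siYAP, with a log2 fold change of 0.675 (SE 0.118, adjusted p = 0.0201 by edgeR). Its log2 fold change was 0.66 in siTAZ and -0.01 in siYAP, each against the same siControl libraries. All 3 siTAZ libraries lay above all 3 siYAP libraries. The comparison was chosen after the values had been seen, and the call was lost without siYAP 18, siTAZ 24 or siYAP 28 (adjusted p = 0.174, 0.111 and 0.122).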

How the results depend on the processing

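With 1 library left out at a time, the number of changed members was 6 to 10 in siYAP+TAZ (3 to 5 differentially expressed, and 5 to 7 regulators), 0 to 1 in siYAP, 1 in siTAZ, 0 in siControl against Control and in the interaction, 0 to 1 in siYAP+TAZ against siYAP and 0 to 2 against siTAZ. Under the other settings siYAP+TAZ gave 8 to 11 changed and 4 differentially expressed members. With only the groups compared there were 0 in siYAP, siTAZ and siYAP+TAZ against siYAP. In siYAP+TAZ against siTAZ there was 1, which was neither MYL9 nor MYL12B. Against siTAZ, the size factors of DESeq2, library size only and both filters on low counts each gave 1, which was MYL12B. DESeq2 called 2 in siTAZ, 2 in siYAP+TAZ against siYAP and 4 against siTAZ. Runs of consecutive library numbers, which the labels do not describe, were entered as a replicate block. This gave 11 in siYAP+TAZ (the 10 called without it, and MYO9A at adjusted p = 0.0390) and 12 regulators there. It gave 4 in siYAP (MYH15, MYL6B, MYO15B and MYL12B), 4 in siTAZ (MYO10, MYO1E, MYO9B and MYL9) and 7 in siYAP+TAZ against siYAP. Against siTAZ the block gave 9. Among these were MYL9 (adjusted p = 0.0167), MYL12B (0.000438), MYH10 (0.0021) and MYH9 (0.0331), all lower in siYAP+TAZ. The share of all genes called was not computed under any of these alternative settings. Libraries of 1 run correlated by -0.05 to 0.65 in their deviations from the group means (median 0.42, against -0.35 between runs), and 10 of 15 libraries correlated best with one of their own run. This is a hint from the data that the runs may be the sets of experiments, but 26 of 30 pairs and not all were above 0.1, so the numbers were not taken as pairs.

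The sign of MYH9 turned with library size only (0.03196), and that of MYL12A with Control as the reference (-0.04351). With 1 library left out, MYH9 ranged from -0.05247 to 0.05679 and MYL12A from -0.06765 to 0.08666. MYL9's share in siYAP ranged from -0.249 to 1.42 percentage points from siControl, in siTAZ from 4.42 to 8.61 and in siYAP+TAZ from 3.33 to 5.79. MYH10's share differed by 0.0851 to 0.311 in siYAP, by -0.371 to -0.00198 in siTAZ and by -0.475 to -0.211 in siYAP+TAZ. The causes of these shifts were not tested. The filters on low counts left 31 members. Depth limits the 11 members below 20 normalized counts. With 3 libraries a group no share can fall below an exact p of 0.1.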
